A study of Homo sapiens with 12 samples.

Results

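MicroRNA (miRNA) levels were compared between HEK293T cells, a human embryonic kidney line, rescued with a DICER lacking its double-stranded RNA-binding domain (dsRBD deletion) and the same line rescued with WT DICER. The comparison used 4 of the 12 libraries of the series, 2 for each form, and every human miRNA name in their count tables. The tables listed 1611 names, of which 626 had enough reads to be tested. No name was chosen by its value. The 8 other libraries were 2 HEK293T libraries of a DICER form called AA, a change that the labels do not explain, and 6 HCT116 libraries, a human colorectal carcinoma line, 2 for each of the 3 forms. Libraries came from 100 µg of TRIzol-extracted total RNA and were made by AQ-seq, a small RNA protocol built to reduce ligation bias. The labels describe the cells only as rescued, and the sources used here do not say whether the native DICER gene was absent, whether a line was 1 clone, or how much of each form was made. An effect of the missing domain and an effect of a different amount of DICER therefore cannot be told apart. Replicate numbers are labelled, separate cultures are not, so each p-value measures only how far these libraries spread, which may be technical.

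DICER is the nuclease that removes the loop of a precursor hairpin and leaves a short duplex, whose strands are the 5p and the 3p arm. One strand is usually kept in an Argonaute protein, and the hairpin and the exact cut decide which. Bases 2 to 8 of the kept strand, the seed, pair with target mRNAs, so miRNAs with 1 seed share targets. Many hairpins lie side by side on 1 primary transcript, from which each must be cut out and processed on its own. The dsRBD lies at the carboxyl end of DICER and contacts the stem of the hairpin.

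WT libraries held 2791656 and 3552613 miRNA reads and deletion libraries 1059778 and 1226813. A count of 0 allows up to 3 reads, which were 1.06, 0.877, 2.65 and 2.30 CPM in that order. Levels are given in CPM, reads per 1000000 of a library size corrected by TMM, which sets the typical miRNA of each library equal, and since miRNAs are of about equal length the levels of different names were not scaled by length. The 5 miRNAs listed for HEK293T, such as miR-10a-5p, were each higher in every HEK293T library than in any HCT116 library. The lists were chosen with earlier results of these data known, so that count does not test the identity of the line. Of 7 listed as HCT116 markers, 4 were higher in every HCT116 library, 2 (miR-192-5p and miR-194-5p) were higher in every HEK293T library and 1 overlapped. Of 12 markers of blood, muscle, liver, brain and other tissues, 11 were listed, and 8 of these stayed under 20 RPM, reads per 1000000 without TMM, in every HEK293T library. Their summed level was 7989.9 and 7740.2 RPM with WT and 3831 and 3843 with the deletion, most of it miR-486-5p. Without miR-486-5p it was 753 and 596 with WT and 494 and 536 with the deletion. The part of such RNA in the results below was not tested.

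Members of several seed groups went in opposite directions or changed by very different amounts, and the sequences that show this are given with the seed in capitals, 5′ to 3′. They are RefSeq mature sequences of GRCh38.p14, in which 546 of the 626 tested names were found. The first set holds miR-19a-3p and miR-19b-3p, which rose, and 4 members of the miR-17 seed group, which lie on the same transcript as miR-19 or on that of miR-93.
miR-19a-3p: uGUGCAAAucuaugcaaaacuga
miR-19b-3p: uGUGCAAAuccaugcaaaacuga
miR-17-5p: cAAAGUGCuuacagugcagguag
miR-20a-5p: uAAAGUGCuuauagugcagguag
miR-106b-5p: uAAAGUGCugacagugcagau
miR-93-5p: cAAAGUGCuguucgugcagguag
The second set holds miR-92a-3p and miR-25-3p, of 1 seed, and 3 members of the miR-15/miR-16 group.
miR-92a-3p: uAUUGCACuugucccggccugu
miR-25-3p: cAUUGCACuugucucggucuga
miR-15a-5p: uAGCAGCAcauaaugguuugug
miR-15b-5p: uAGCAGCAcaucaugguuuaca
miR-16-5p: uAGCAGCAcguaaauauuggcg
The third set holds pairs in which both members fell.
miR-103a-3p: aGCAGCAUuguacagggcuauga
miR-107: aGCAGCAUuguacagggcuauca
miR-221-3p: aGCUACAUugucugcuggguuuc
miR-222-3p: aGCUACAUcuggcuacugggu
The last set holds members of 5 seed groups that parted from each other.
miR-99a-5p: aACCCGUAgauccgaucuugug
miR-99b-5p: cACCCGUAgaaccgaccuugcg
miR-193a-3p: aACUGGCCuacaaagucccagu
miR-193b-3p: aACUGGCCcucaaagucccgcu
miR-23a-3p: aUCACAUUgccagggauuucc
miR-23b-3p: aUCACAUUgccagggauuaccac
miR-27a-3p: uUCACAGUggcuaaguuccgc
miR-27b-3p: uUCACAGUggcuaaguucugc
miR-130b-3p: cAGUGCAAugaugaaagggcau
miR-301a-3p: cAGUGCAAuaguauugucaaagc
miR-454-3p: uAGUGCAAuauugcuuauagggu
Counted from 1 at the 5′ end, miR-19a-3p and miR-19b-3p differ only by U11C, miR-103a-3p and miR-107 only by G22C, and miR-27a-3p and miR-27b-3p only by C19U. MiR-99a-5p and miR-99b-5p differ by 4 substitutions, A1C, U11A, U16C and U21C. How the authors assigned reads that match more than 1 such name is not stated, so counts of near-identical names (also miR-1268a and miR-1268b, miR-500a-5p and miR-500b-5p, and the miR-378 members) may share reads.

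With the dsRBD deletion, 473 of the 626 tested miRNAs (75.6%) differed from WT (edgeR's quasi-likelihood test with Benjamini-Hochberg adjustment at 0.05). Of these, 225 (35.9%) were higher and 248 (39.6%) were lower, with a median log2 fold change of −0.07 over all 626. WT and deletion libraries lay apart, with no overlap, for 557 names (89.0%). Large changes were mostly falls: 102 names (16.3%) were called lower by 8-fold or more and 22 (3.51%) higher by 8-fold or more. The 102 include names tested through their reads with the other forms that had no reads in the deletion libraries. An example is miR-1179, with a mean of 5.90 CPM with WT and 0 with the deletion (−6.67). For such names the size of the fall is set by depth, so the excess of large falls is partly uncertain. Of the 102, 25 had at least 1000 CPM with WT. The pool also narrowed. The 10 most abundant names held 50.7% and 49.8% of all miRNA reads with WT and 66.7% and 67.5% with the deletion, and 50% of the reads came from 10 and 11 names with WT but from 6 and 5 with the deletion.

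These counts are relative to the typical miRNA, and the total also differed. Libraries of the deletion held 29.1 and 27.2 miRNA reads per read of the 30 spike-in RNAs, against 82.6 and 80.9 with WT, or 34.5% of WT (28.2 ± 1.33 against 81.8 ± 1.21, mean ± SD, n = 2 each). By a two-sided exact permutation test p was 0.333, and 2 libraries against 2 cannot give a smaller one. When the spike-ins set the scale, each log2 fold change moved down by about the same amount, the median was −1.53, and 60 names (9.58%) were called higher and 386 (61.7%) lower. All 60 were also among the 225 and all 248 falls remained, while 12 of the 225 were then called lower and 153 were not called. A rise below is therefore a rise relative to the typical miRNA, and the spike-in value is given for a named rise whose direction turned. The spike-ins were themselves uneven, with 17 of 30 (56.7%) called different after scaling by their own DESeq2 size factors. The largest change, taken from their median, was 1.63 on the log2 scale. The sources used here do not give the amount added. Values below are on the TMM scale unless the spike-in scale is named.

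**Figure D1:**
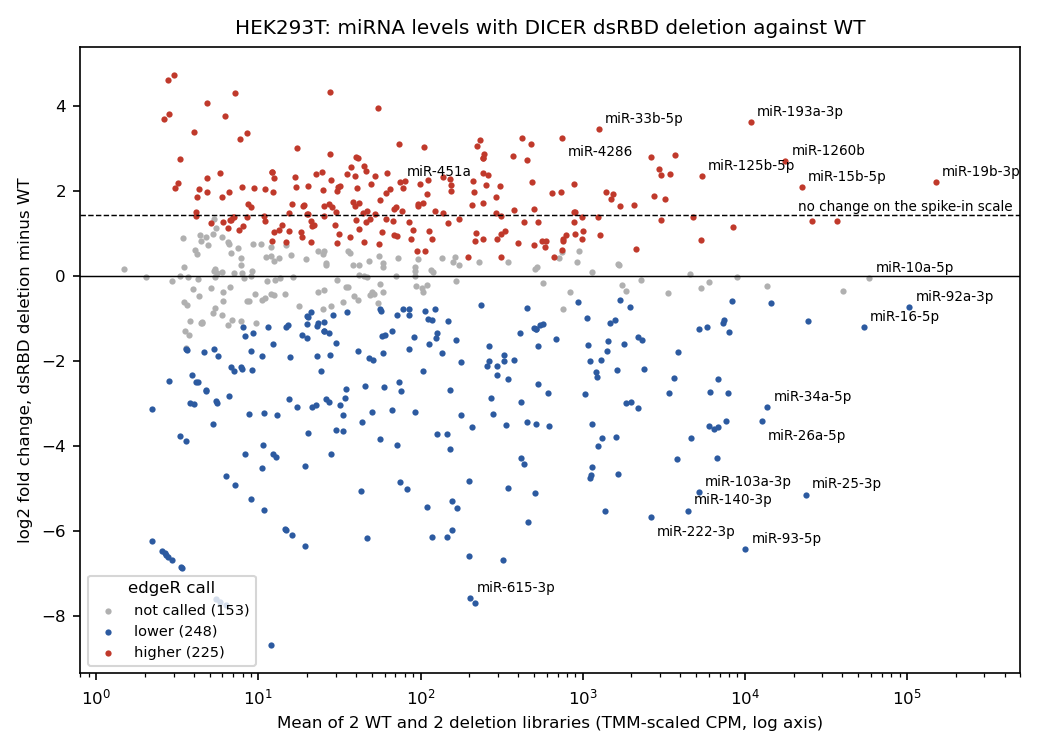
Log2 fold change of each of the 626 tested miRNAs (dsRBD deletion minus WT, TMM scale) against its mean level in the 4 libraries on a log axis, with called rises in red (225), called falls in blue (248) and the rest in grey (153). MiR-93-5p (−6.42), miR-25-3p (−5.13) and miR-103a-3p (−5.07) are among the largest falls of abundant names, and the dashed line marks the change that equals none on the spike-in scale.

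The seed group of miR-19, which is the chief growth-promoting part of the miR-17-92 cluster, came to hold the largest share of the pool. Its 2 members made up 7.18% and 6.23% of all miRNA reads with WT and 30.3% and 30.4% with the deletion. MiR-19b-3p (MIR19B1, in an exon of MIR17HG, chromosome 13, 91351192 to 91351278, and MIR19B2 on chromosome X) stood at 55606 and 50269 CPM with WT and 246933 and 248275 CPM with the deletion, a rise of 4.68-fold (2.23 ± 0.17 log2, SE), and was the most abundant miRNA with the deletion. MiR-19a-3p (MIR19A, in an exon of MIR17HG, chromosome 13, 91350891 to 91350972) stood at 15414 and 14403 CPM with WT and 36798 and 37067 CPM with the deletion (1.31 ± 0.17). On the spike-in scale miR-19b-3p was still called higher (0.77) and miR-19a-3p turned to −0.15, which was not called. Both members were higher in both deletion libraries than in either WT library.

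The miR-17 seed group, which restrains CDKN1A and E2F1, fell from 10.7% and 10.7% of all miRNA reads with WT to 5.88% and 5.52% with the deletion, and its members spread over a wide range. MiR-93-5p (MIR93, in an intron of MCM7, chromosome 7, 100093768 to 100093847) fell from 18025 and 21816 to 246 and 219.6 CPM, 85.5-fold (−6.42 ± 0.21), the largest fall under the rule for named miRNAs. MiR-106b-5p (MIR106B, in an intron of MCM7, chromosome 7, 100093993 to 100094074) fell from 7126 and 7442 to 373.4 and 365.0 CPM (−4.30 ± 0.18). By contrast miR-17-5p (MIR17, in an exon of MIR17HG, chromosome 13, 91350605 to 91350688) fell only from 34461 and 32061 to 16738 and 15292 CPM (−1.05 ± 0.17), and miR-106a-5p from 2951 and 2462 to 933 and 879 CPM (−1.58 ± 0.20). MiR-20a-5p stood at 43403 and 47019.9 CPM with WT and 36696 and 35036 CPM with the deletion and was not called (−0.33 ± 0.17), although its groups did not overlap. It was called lower when either AA library was left out of the fit (−0.41 in both cases). On the spike-in scale all 5 tested members were lower.

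The seed shared by miR-92a-3p and miR-25-3p accounted for 18.3% and 16.8% of all miRNA reads with WT and 8.67% and 8.68% with the deletion. MiR-92a-3p, the most abundant miRNA with WT, stood at 137933 and 118386 CPM with WT and 77430.4 and 78011 CPM with the deletion, a fall of 1.65-fold (−0.72 ± 0.15). MiR-25-3p (MIR25, in an intron of MCM7, chromosome 7, 100093560 to 100093643) fell from 39413 and 53144 to 1293 and 1342 CPM, 35.1-fold (−5.13 ± 0.22). MiR-92b-3p lay between them, falling from 2253 and 1765 to 451 and 393 CPM (−2.25 ± 0.19).

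The miR-15/miR-16 seed group, which targets BCL2 and several cyclins, kept a similar share, 10.1% and 9.72% of all miRNA reads with WT and 7.96% and 8.44% with the deletion, while its members changed places. Of 6 tested members, 3 were called higher and 3 lower, beside 35.9% higher and 39.6% lower over all 626 names. The longer miR-15/miR-16 list of 13 tested names had 3 higher and 7 lower, and 1 higher and 11 lower on the spike-in scale. MiR-15b-5p (MIR15B, in an intron of SMC4, chromosome 3, 160404588 to 160404685) rose from 8283 and 8728 to 33461 and 39168 CPM (2.09 ± 0.16, and 0.64 on the spike-in scale), and miR-195-5p rose from 1152 and 1201 to 4392 and 4342 CPM (1.89 ± 0.18). MiR-16-5p, made from MIR16-1, in an intron of DLEU2, chromosome 13, 50048973 to 50049061, and from MIR16-2, in an intron of SMC4, chromosome 3, 160404745 to 160404825, fell from 74879 and 75657 to 33500.5 and 32278 CPM (−1.19 ± 0.16). MiR-15a-5p (MIR15A, in an exon of DLEU2, chromosome 13, 50049119 to 50049201) fell from 13989 and 13236 to 1899 and 2162 CPM (−2.75 ± 0.17). With WT, miR-15a-5p was above miR-15b-5p in both libraries, and with the deletion it was far below it in both.

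Some close sequence relatives also parted elsewhere. Among the 546 tested names found in RefSeq, 59 seed groups held at least 2 tested names. Of these, 12 (20.3%) held both a called rise and a called fall, and 6 did on the spike-in scale. Over all 626 names 35.9% were called higher and 39.6% lower, so groups of unrelated names would also hold both calls. Whether names of 1 seed part more or less often than unrelated names was not tested. MiR-99a-5p (MIR99A, in an intron of MIR99AHG, chromosome 21, 16539089 to 16539169) rose from 3067 and 2219 to 6804 and 7188 CPM (1.40 ± 0.19, but −0.05 and not called on the spike-in scale), whereas miR-99b-5p (MIR99B, in an intron of SPACA6, chromosome 19, 51692612 to 51692681), added after its values were seen, fell from 799.5 and 543 to 18.5 and 23.7 CPM (−4.98 ± 0.30). MiR-193a-3p rose 12.4-fold and miR-193b-3p fell from 858 and 637 to 348 and 331 CPM (−1.14 ± 0.19). Of the pair miR-23a-3p and miR-23b-3p, the first rose from 983 and 761 to 1671 and 1736 CPM (0.97 ± 0.19, turning to −0.49 on the spike-in scale) and the second (MIR23B, in an intron of C9orf3, chromosome 9, 95085208 to 95085304) fell from 2369.9 and 1744 to 408 and 386 CPM (−2.37 ± 0.22). MiR-27b-3p (MIR27B, in an intron of C9orf3, chromosome 9, 95085445 to 95085541) fell from 4238 and 3657 to 436 and 484 CPM (−3.10 ± 0.18), and miR-27a-3p, 1 base away from it, stood at 1248 and 953 CPM with WT and 1204 and 1172 CPM with the deletion and was not called (0.11 ± 0.18). In the miR-130/miR-301/miR-454 group miR-301a-3p fell from 414 and 359 to 16.8 and 10.7 CPM (−4.82 ± 0.32) and miR-454-3p from 769 and 898 to 40.6 and 37.5 CPM (−4.42 ± 0.26), while miR-130b-3p rose from 1741 and 1704 to 4355 and 4289 CPM (1.33 ± 0.19, −0.13 on the spike-in scale).

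Other pairs with 1 seed fell together. The miR-103/miR-107 seed group, whose hairpins lie in introns of the pantothenate kinase genes and whose miRNAs act on insulin sensitivity, fell from 1.27% and 1.15% of reads to 0.0386% and 0.0434%, 29.5-fold. MiR-103a-3p (MIR103A1, in an intron of PANK3, chromosome 5, 168560896 to 168560973, and MIR103A2, in an intron of PANK2, chromosome 20, 3917494 to 3917571) fell from 10374 and 9769.6 to 288 and 311 CPM (−5.07 ± 0.19). MiR-107 (MIR107, in an intron of PANK1, chromosome 10, 89592747 to 89592827) fell from 2225 and 2123 to 73.3 and 96.4 CPM (−4.67 ± 0.21). Of the miR-221/miR-222 pair, which restrains the cell cycle inhibitor CDKN1B, miR-222-3p (MIR222, in an intron of MIR222HG, chromosome X, 45747015 to 45747124) fell 50.8-fold, from 5234 and 5055 to 109 and 94.1 CPM (−5.67 ± 0.20). MiR-221-3p (MIR221, in an intron of MIR222HG, chromosome X, 45746157 to 45746266), from the same transcript, fell 5.27-fold, from 5849.7 and 6363 to 1164 and 1155 CPM (−2.40 ± 0.16). MiR-26a-5p and miR-26b-5p, which share 1 seed and occupy introns of CTD phosphatase genes, both fell, the first from 21760.1 and 24857 to 2202 and 2200.2 CPM (−3.40 ± 0.18) and the second from 10546 and 15232 to 693 and 631 CPM (−4.28 ± 0.26).

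Beyond these groups, 4 other abundant miRNAs were among the 10 largest falls of at least 500 CPM. MiR-1307-3p (MIR1307, in an exon of ATP5MD, chromosome 10, 103394253 to 103394401) fell from 2705 and 2697 to 57.4 and 60.5 CPM (45.8-fold). MiR-140-3p (MIR140, in an intron of WWP2, chromosome 16, 69933081 to 69933180), from a hairpin best known in cartilage, fell from 7863 and 9539.8 to 175 and 207 CPM (45.6-fold). MiR-128-3p, a neuronal miRNA made from MIR128-1, in an intron of R3HDM1, chromosome 2, 135665397 to 135665478, and from MIR128-2, in an intron of ARPP21, chromosome 3, 35744476 to 35744559, fell from 2186 and 2121 to 71.5 and 88.8 CPM (26.8-fold). MiR-425-5p (MIR425, in an intron of DALRD3, chromosome 3, 49020148 to 49020234) fell from 3393 and 2933 to 104 and 148 CPM (25-fold). In each case both deletion libraries lay more than 10-fold below both WT libraries. The adjusted p of the 10 largest falls by edgeR's quasi-likelihood test ranged from 8.1e-09 to 5.8e-08, and each fall held its direction and its call on the spike-in scale.

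The largest rise of at least 500 CPM was miR-193a-3p (MIR193A, intergenic on its strand, chromosome 17, 31559996 to 31560083), known as a growth-suppressing miRNA. It stood at 1903 and 1331 CPM with WT and 19589 and 20572 CPM with the deletion, a rise of 12.4-fold (3.63 ± 0.21, edgeR adjusted p = 9.9e-08). MiR-33b-5p (MIR33B, in an intron of SREBF1, chromosome 17, 17813836 to 17813931), a regulator of cholesterol export through ABCA1, rose from 269 and 152.3 to 2471 and 2153 CPM (3.46 ± 0.26). MiR-19b-1-5p, the passenger arm of a miR-19b hairpin, rose from 927 and 890.0 to 6606 and 6498 CPM (2.85 ± 0.17). MiR-625-5p (MIR625, in an intron of FUT8, chromosome 14, 65471102 to 65471186) rose from 641 and 674 to 4509 and 4709 CPM, and miR-197-3p (MIR197, in an exon of GNAI3, chromosome 1, 109598893 to 109598967) from 972 and 772 to 5012 and 4991 CPM. For these 5 both deletion libraries stood far above both WT libraries. MiR-125b-5p, a homolog of worm lin-4 made from MIR125B1, in an intron of MIR100HG, chromosome 11, 122099757 to 122099844, and from MIR125B2, in an intron of MIR99AHG, chromosome 21, 16590237 to 16590325, rose from 1751 and 1770.1 to 8425 and 9718 CPM (2.37 ± 0.30). All 10 largest rises except miR-1268a were also called higher on the spike-in scale, by 0.91 (miR-125b-5p) to 2.18 (miR-193a-3p), and miR-1268a was at 0.93 there.

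The 4 remaining large rises, miR-4286, miR-1260b, miR-1268a and miR-1268b, carry no arm suffix in their names. MiR-1260b (MIR1260B, intergenic on its strand, chromosome 11, 96341438 to 96341526) stood at 5099 and 4337 CPM with WT and 38834 and 22822 CPM with the deletion and miR-4286 at 148 and 131 CPM with WT and 1482 and 1202 CPM with the deletion. MiR-1268b stood at 836 and 1353 CPM with WT and 7169.8 and 4462 CPM with the deletion. For miR-1260b and the miR-1268 names the 2 deletion libraries differed from each other by more than 1.5-fold, and the AA libraries by more than that (6647 and 2704 CPM for miR-1260b), so these were the less even of the rises. MiR-4521, also without a suffix and among the 10 most abundant names with either form, rose from 17947 and 24912 to 41396 and 64184 CPM (1.30 ± 0.27, but −0.16 on the spike-in scale).

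**Figure D2:**
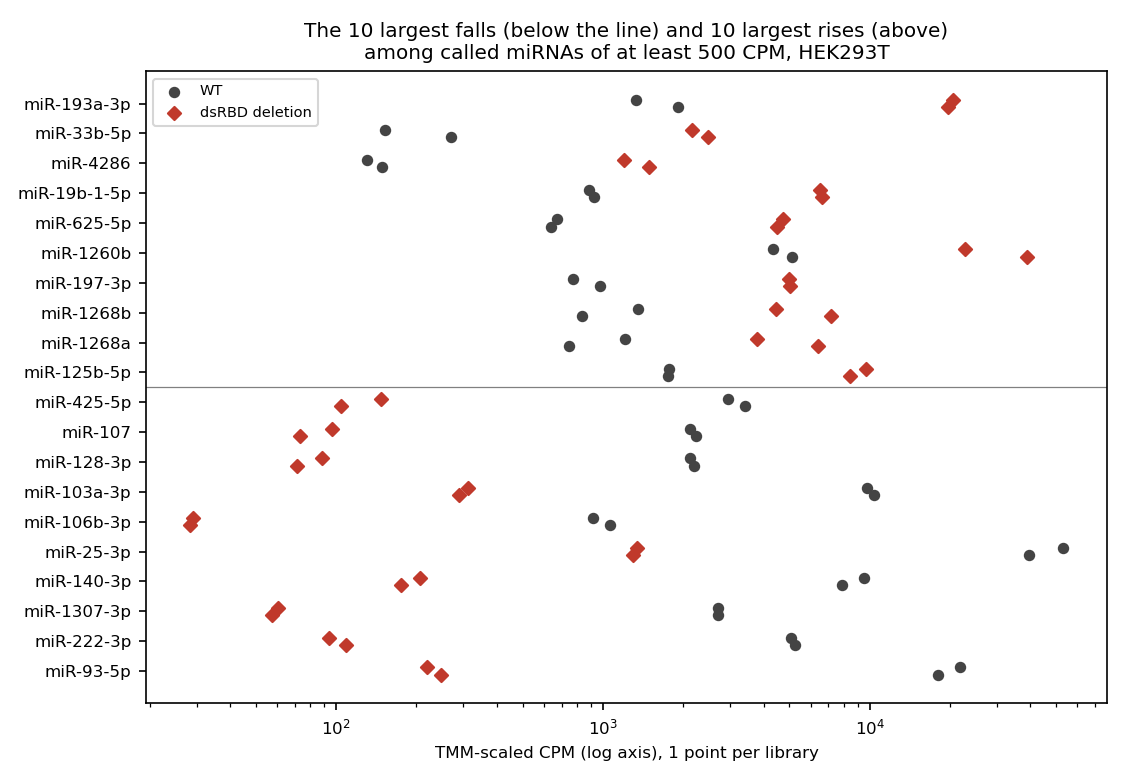
TMM-scaled CPM on a log axis in each of the 2 WT libraries (grey circles) and 2 deletion libraries (red diamonds) for the 10 largest falls and 10 largest rises among those called and averaging 500 CPM or more. The 2 groups lie apart for all 20 miRNAs, and the 2 deletion libraries lie close together except for miR-1260b, miR-1268a and miR-1268b.

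Neighbouring hairpins moved in opposite directions in some clusters and in 1 direction in others. Among the 546 tested names found in RefSeq, hairpins within 10 kb of each other on 1 strand formed 40 genomic clusters. Of these, 17 held both a called rise and a called fall (15 when only names made from a single locus were counted). Names not found in RefSeq were left out of these cluster counts, but the counts by named cluster that follow include them. A further 18 clusters held called falls and no called rise, and 5 held called rises and no called fall. Over all 626 names 35.9% were called higher and 39.6% lower, so groups of unrelated names would also hold both calls. Those are shares of single names, and the share of such groups that would hold both was not computed. Whether the 42.5% of clusters with both calls is more or less than that was not tested. Scaled by spike-ins, 6 of the 40 clusters held both calls, 33 held falls and no rise, and 1 held rises and no fall.

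Of 14 tested names from the intronic cluster of CLCN5 on chromosome X, 10 were called higher and 3 lower (median 1.52, against −0.07 over all 626). MiR-362-5p (MIR362, in an intron of CLCN5, chromosome X, 50008964 to 50009028) rose from 119 and 78.0 to 889.7 and 827 CPM (3.13 ± 0.23), and miR-500a-5p (MIR500A, in an intron of CLCN5, chromosome X, 50008431 to 50008514) from 69.4 and 52.9 to 416 and 428 CPM (2.79 ± 0.22). MiR-532-5p (MIR532, in an intron of CLCN5, chromosome X, 50003148 to 50003238), at the start of the cluster, fell from 810.2 and 742 to 352 and 368 CPM (−1.11 ± 0.16). Its neighbour miR-188-5p (MIR188, in an intron of CLCN5, chromosome X, 50003503 to 50003588) went from 103 and 82.7 to 2.65 and 0.00 CPM, a called fall that rests on 3 reads and 0 reads in the deletion libraries. MiR-188-5p and miR-500a-5p were added after their values were seen. On the spike-in scale 5 of the 14 were called higher and 5 lower, with miR-362-5p at 1.67 and miR-532-5p at −2.56.

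In the cluster of miR-99b, let-7e and miR-125a, all in an intron of SPACA6 on chromosome 19, products of the first 2 hairpins fell while that of the third rose. MiR-99b-5p fell 31.5-fold. Let-7e-5p (MIRLET7E, in an intron of SPACA6, chromosome 19, 51692786 to 51692864), added after its values were seen, fell from 247 and 362.4 to 9.71 and 6.12 CPM (−5.28 ± 0.38). MiR-125a-5p (MIR125A, in an intron of SPACA6, chromosome 19, 51693254 to 51693339) rose from 897 and 1082 to 3197 and 3147 CPM (1.68 ± 0.29, 0.23 and not called on the spike-in scale).

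The MIR17HG transcript, which encodes the miR-17-92 cluster, had 12 tested names, 7 higher and 3 lower (median 1.27, and −0.18 with 3 higher and 5 lower on the spike-in scale). Besides miR-19 and miR-19b-1-5p, the passenger arms miR-19a-5p (85.4 and 75.4 to 696 and 844 CPM), miR-20a-3p (708 and 664 to 1844 and 1788 CPM), miR-18a-3p (340.1 and 286 to 748 and 762 CPM) and miR-92a-1-5p (377 and 652 to 1191 and 1294 CPM) rose. On the spike-in scale miR-19a-5p was at 1.80 and called, while miR-20a-3p, miR-18a-3p and miR-92a-1-5p turned to −0.05, −0.18 and −0.19. MiR-17-3p fell from 3525 and 2889.6 to 1138 and 1236 CPM (−1.43 ± 0.17), and miR-18a-5p was not called (6396 and 6062 to 5729 and 5739 CPM). From the paralogous MCM7 transcript, by contrast, 5 of 6 names fell (median −4.70). Of its members, miR-93-3p (613 and 402 to 58.3 and 49.7 CPM) and miR-106b-3p (1062 and 917 to 28.2 and 29.1 CPM) fell with their partner arms, and the exception was miR-25-5p, which rose from 517 and 604 to 760.0 and 778 CPM (0.46 ± 0.16, but −0.999 on the spike-in scale). The call of miR-25-5p was lost without any 1 of the 4 WT and deletion libraries (0.32 to 0.48) and without either AA library (0.39 and 0.38). The third paralog, the miR-106a-363 cluster, had 3 of its 10 listed names tested, with miR-19b-2-5p higher (4.96 and 2.63 to 31.8 and 29.8 CPM), miR-106a-5p lower and miR-18b-5p not called (185 and 130.4 to 185 and 193 CPM).

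In the miR-15b/miR-16-2 intron of SMC4, miR-15b-5p rose while miR-16-2-3p, which only this locus makes and which was added after its values were seen, fell from 3261 and 3649 to 1187 and 1245 CPM (−1.51 ± 0.16). The miR-424/miR-503/miR-450 cluster of chromosome X, known for a role in cell cycle exit, had 10 tested names with 8 lower and 1 higher (median −1.61). The riser was miR-503-5p, from 706 and 616 to 2298 and 2346 CPM (1.81 ± 0.17). MiR-542-3p fell from 274 and 343 to 4.41 and 5.36 CPM (−5.96 ± 0.30), miR-450a-5p from 594 and 648 to 56.5 and 52.8 CPM and miR-424-5p from 1557 and 1696 to 447 and 609 CPM.

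**Figure D3:**
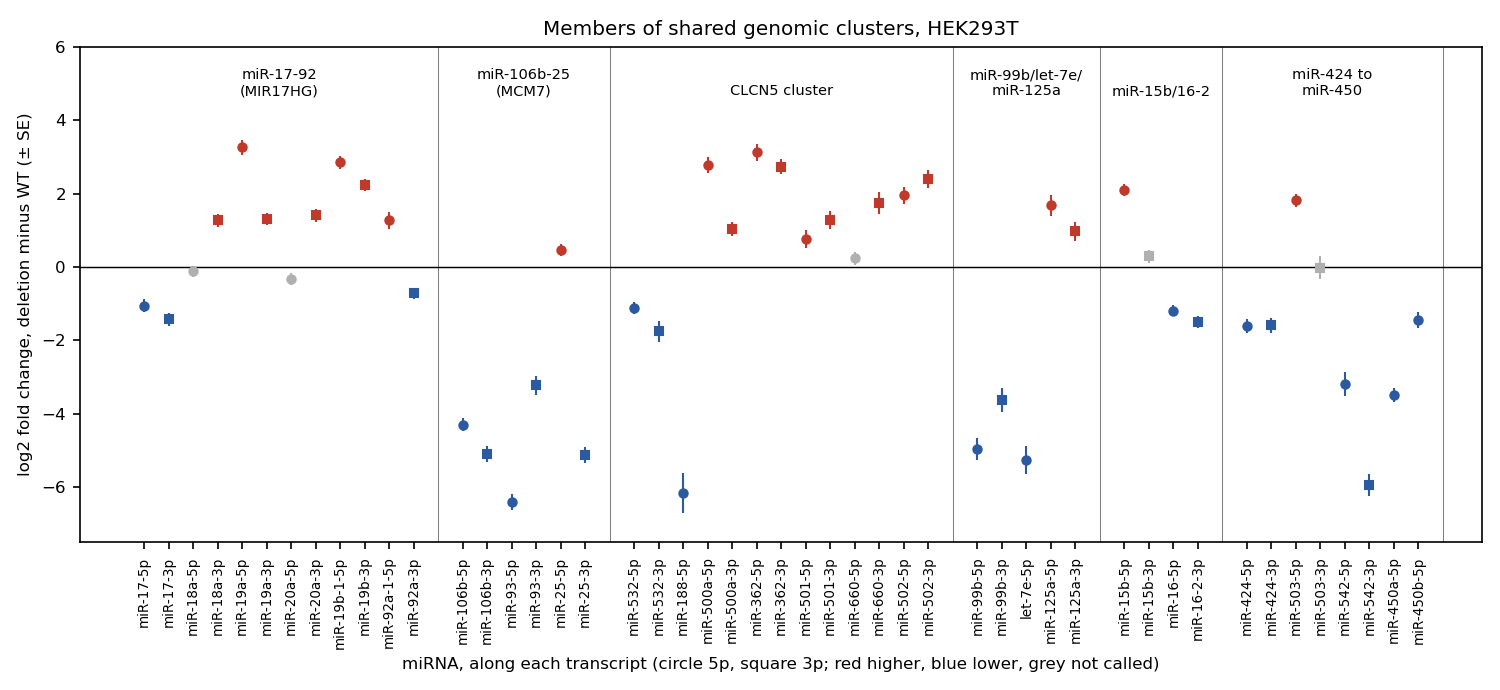
Log2 fold change (deletion minus WT, ± SE, TMM scale) of the tested miRNAs of 6 genomic clusters, listed along each transcript, with circles for 5p and squares for 3p arms and with red for called rises, blue for called falls and grey for the rest. Each cluster holds points on both sides of 0, from −6.42 for miR-93-5p to 3.26 for miR-19a-5p, and the point of miR-188-5p rests on 3 reads in the deletion libraries.

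Arms were paired by name, so for names made from more than 1 hairpin a pair can mix precursors. Where a name has 1 hairpin, its 2 arms were cut from the same precursor. The ratio of the 3p to the 5p arm does not depend on the scale between libraries. It differed between the forms for 104 of 180 tested hairpins (57.8%, with WT and deletion libraries apart for 143, or 79.4%), toward the 3p arm for 50 (27.8%) and toward the 5p arm for 54 (30%), by the edgeR interaction of arm and group. Most called shifts went toward the arm that was the lesser with WT. Of the 94 hairpins mostly 5p in both WT libraries, 39 moved toward 3p and 17 toward 5p. Of the 73 mostly 3p, 34 moved toward 5p and 7 toward 3p. The lesser arm was set by the same WT libraries that enter the shift. Some lesser arms passed the read filter only through the deletion libraries, such as miR-210-5p (5 and 4 reads with WT, 16 and 22 with the deletion). These counts are therefore a description and not a test of direction. Where both arms of a hairpin were tested for level (175 hairpins), 51 had both arms lower, 38 both higher, and 16 had 1 arm higher and the other lower.

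MiR-25 gave the largest shift toward 5p of the hairpins with at least 100 CPM. Its 3p arm made up 98.7% and 98.9% with WT and 63.0% and 63.3% with the deletion, a change of −5.58 ± 0.19 in log2(3p/5p). MiR-101 is made from 2 hairpins. The reference placed miR-101-5p on chromosome 1 and miR-101-3p on chromosome 9, so their ratio may set different hairpins against each other. The 3p share of miR-101 was 99.3% and 99.6% with WT and 90.8% and 88.7% with the deletion (−4.45 ± 0.27). That of miR-454 (MIR454, in an intron of SKA2, chromosome 17, 59137758 to 59137872) was 94.5% and 95.2% with WT and 48.9% and 61.2% with the deletion (−3.92 ± 0.37), and that of miR-29a 97.4% and 97.9% with WT and 73.1% and 76.6% with the deletion (−3.83 ± 0.29). MiR-338 (MIR338, in an intron of AATK, chromosome 17, 81125883 to 81125949) went the same way, with 97.0% and 96.9% with WT and 37.5% and 69.2% with the deletion (−4.58 ± 0.79), in which the deletion libraries were far apart. For these 5 names the dominant 3p arm was called lower on the TMM scale, and the 5p arm was called higher (miR-25, miR-101 and miR-29a) or was not called. None of these 5p arms was higher on the spike-in scale, with miR-101-5p at −0.38 and miR-29a-5p at −0.56, neither called, and miR-25-5p at −0.999. The deletion shares of miR-338 rest on 8 and 13 reads.

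Shifts toward 3p were led by miR-425, whose 3p arm made up 4.15% and 4.01% with WT and 45.4% and 31.6% with the deletion (3.85 ± 0.32). MiR-34a (MIR34A, in an exon of MIR34AHG, chromosome 1, 9151668 to 9151777), a p53 target, followed with 0.845% and 0.799% with WT and 8.69% and 7.5% with the deletion (3.41 ± 0.21), its 5p arm falling from 22501 and 26635 to 2784 and 3078 CPM. The 3p share of miR-93 was 3.29% and 1.81% with WT and 19.1% and 18.5% with the deletion (3.21 ± 0.28), and that of miR-190a 2.74% and 3.09% with WT and 19.6% and 17.5% with the deletion (2.90 ± 0.33). MiR-9 rose from a minor to a near-equal 3p share, 14.7% and 13.8% with WT and 46.3% and 44.4% with the deletion (2.32 ± 0.24). MiR-26b kept its 5p arm as the main product, with a 3p share of 0.938% and 0.546% with WT and 3.44% and 4.18% with the deletion (2.46 ± 0.32). MiR-551b differed in that its 3p arm was already the major one, with 95.6% and 95.1% with WT and 99.4% and 99.3% with the deletion (2.84 ± 0.34).

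In 10 hairpins with a called shift and at least 100 CPM the major arm itself changed in both libraries, 8 from 3p to 5p and 2 from 5p to 3p. The deletion shares of miR-331 rest on 12 and 30 reads and those of miR-542 on 12 and 24. The 3p share of miR-331 (MIR331, intergenic on its strand, chromosome 12, 95308420 to 95308513) was 85.7% and 80.8% with WT and 8.33% and 30% with the deletion. That of miR-550a was 83.0% and 83.0% with WT and 26.7% and 25.6% with the deletion, and that of miR-625 67.9% and 74.4% with WT and 35.7% and 36.2% with the deletion. The others of this direction were miR-542 (75.1% and 79.3% with WT and 41.7% and 29.2% with the deletion), miR-455 (59.5% and 61.5% with WT and 19.6% and 28.1% with the deletion), miR-500a (69.4% and 71.5% with WT and 42.0% and 40.5% with the deletion), miR-28 (53.2% and 70.6% with WT and 39.0% and 34.4% with the deletion) and miR-151a (50.3% and 58.4% with WT and 26.7% and 23.7% with the deletion). MiR-629 (MIR629, in an intron of TLE3, chromosome 15, 70079372 to 70079468) went the other way, with a 3p share of 17.1% and 9.85% with WT and 56.9% and 57.8% with the deletion, as did miR-653, with 40.9% and 37.3% with WT and 60.6% and 64.9% with the deletion.

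**Figure D4:**
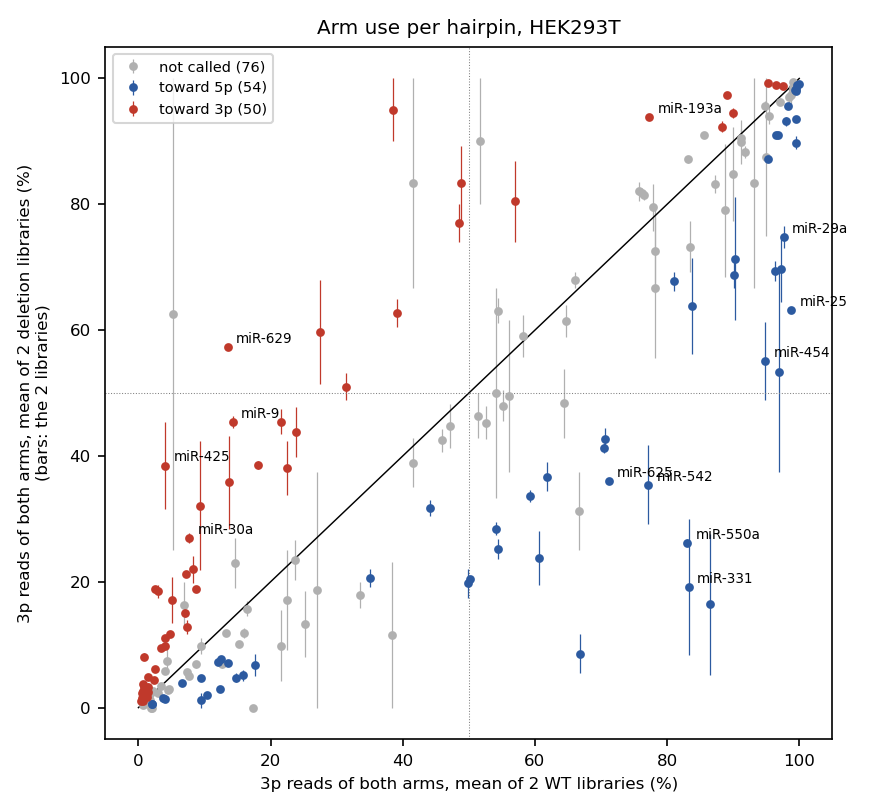
Share of 3p reads among both arms of each of 180 hairpins, mean of the 2 WT libraries on the x axis and of the 2 deletion libraries on the y axis (vertical bars span the 2 deletion libraries), with shifts toward 3p in red (50), toward 5p in blue (54) and the rest in grey (76). MiR-25 moved from 98.7% and 98.9% 3p to 63.0% and 63.3%, and miR-629 and miR-331 crossed the 50% line in opposite directions.

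The counts of called members that follow are read against the 35.9% of all tested names called higher and the 39.6% called lower. Among families defined by sequence or function, the miR-181 family, which acts in lymphocyte development, had 9 tested names, 8 lower and none higher (median −1.98, edgeR), with miR-181a-5p falling from 5582 and 6388 to 1677 and 1808 CPM and miR-181c-5p from 331 and 328 to 12.4 and 3.06 CPM. The remaining name was not called. All 4 tested miR-378 names fell (median −3.53), led by miR-378a-3p, a product of an intron of PPARGC1B that acts in energy metabolism (12728 and 12487 to 1127 and 1022 CPM). Of 6 miR-148/miR-152 names 5 fell (median −2.29), miR-148a-3p from 10617 and 10468 to 1668 and 1529.8 CPM and miR-148b-3p from 2969 and 3009 to 212 and 220.4 CPM. The miR-29 family, known for repressing collagens, had 5 of 7 tested names lower and 2 higher (5 lower and 1 higher on the spike-in scale). Its 3 main 3p arms fell, miR-29a-3p from 3064 and 3935 to 437 and 468 CPM. The passenger arms were split: miR-29b-1-5p and miR-29b-2-5p fell, while those of miR-29a and miR-29c rose. MiR-29c-5p went from 75.1 and 77.7 to 422 and 401 CPM (0.97 on the spike-in scale). The miR-30 family had 7 of 11 tested names lower and 2 higher (9 lower and none higher on the spike-in scale), with miR-30c-5p falling from 11993 and 11085 to 2201 and 2118 CPM and miR-30e-5p at 14652 and 14844 CPM with WT and 12212 and 12831 CPM with the deletion, not called. Of the miR-183 cluster of sensory cells, miR-182-5p fell from 5076 and 6817 to 891 and 884 CPM and miR-96-5p rose from 611 and 449.3 to 1093 and 1009 CPM (0.99 ± 0.23, but −0.47 on the spike-in scale and 0.64, not called, without WT replicate 2). The miR-200 family, an epithelial marker, was scarce, with 3 of 4 tested names lower, and its most abundant member miR-200c-3p stood at 25.5 and 37.1 CPM with WT and 21.2 and 16.1 CPM with the deletion (−0.76 ± 0.37), not called with all libraries and called without WT replicate 1 (−1.03) or either AA library (−0.83 and −0.84).

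Fewer lists rose. All 4 names of the miR-33 hairpins, which lie in introns of SREBF1 and SREBF2, rose (median 1.58), with miR-33a-5p (MIR33A, in an intron of SREBF2, chromosome 22, 41900944 to 41901012) from 1777 and 1067 to 4942 and 5162 CPM and its 3p arm from 209 and 210.4 to 352 and 420.1 CPM. On the spike-in scale only miR-33b-5p of the 4 was called, and miR-33a-3p and miR-33b-3p turned to −0.57 and −0.11. Of the miR-34/miR-449 family, 5 of 9 names rose (median 0.46) while its most abundant member miR-34a-5p fell, and on the spike-in scale 2 were higher and 5 lower (median −0.99). MiR-34b-5p rose from 163 and 217 to 593 and 527 CPM and miR-34b-3p from 51.4 and 67.5 to 391.9 and 481 CPM. The miR-192/miR-194/miR-215 family had 4 of 6 names higher and 1 lower (median 1.15), including miR-215-5p (251 and 276 to 989 and 1065 CPM), and on the spike-in scale none was higher and 2 were lower (median −0.30). Of miRNAs made from the HOX clusters, miR-196b-5p rose from 5016 and 5452 to 12197 and 11207 CPM (1.16 ± 0.18, −0.29 on the spike-in scale), miR-10a-5p stood at 53664 and 64512 CPM with WT and 59078 and 56432 CPM with the deletion and was not called (−0.03 ± 0.16), and miR-615-3p, from an intron of HOXC5, fell from 468 and 338 to 2.65 and 1.53 CPM (−7.58 ± 0.37). The let-7 family had 5 of 9 5p names lower and 1 higher, and all 9 were lower on the spike-in scale, let-7a-5p falling from 6413 and 9903 to 4021 and 3101 CPM and let-7g-5p rising from 309 and 443 to 678 and 571 CPM, which turned to −0.72 on the spike-in scale and lost its call without WT replicate 1 (0.46) or deletion replicate 1 (0.61). No name of the chromosome 14 and chromosome 19 imprinted clusters or of the embryonic miR-302/miR-371 lists had enough reads to be tested.

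Names made by other routes than the usual cuts by DROSHA and DICER were few. MiR-451a, which is cut by AGO2 and does not need DICER, rose from 28.0 and 24.8 to 118 and 129 CPM (2.22 ± 0.23, and 0.77 with a call on the spike-in scale), and its neighbour miR-144-3p had too few reads to be tested. All 5 tested names of the DROSHA-independent list fell. Besides miR-484 these were miR-320 names, of which miR-320b, miR-320c and miR-320d have 1 seed and may share reads, so the names are not separate cases. MiR-484 (MIR484, in an exon of NDE1, chromosome 16, 15643294 to 15643372), whose precursor is a capped transcript, fell from 2564 and 1832 to 96.2 and 100.3 CPM (−4.48 ± 0.24), and miR-320a fell from 7729 and 12203 to 4674 and 5048 CPM (−1.04 ± 0.21). Of 4 tested mirtron names, which are spliced out and skip DROSHA, 1 rose, miR-877-3p (17.0 and 14 to 41.5 and 47.4 CPM), and on the spike-in scale none was higher and 3 were lower. The partner miR-877-5p stood at 76.9 and 64.0 CPM with WT and 68.0 and 73.5 CPM with the deletion. At miR-324, a hairpin at which DICER is known to choose between cut sites, miR-324-5p stood at 665 and 501 CPM with WT and 945 and 856 CPM with the deletion (0.63 ± 0.19, called higher, but −0.82 on the spike-in scale). Its call was lost without WT replicate 2 (0.30), deletion replicate 1 (0.56) or deletion replicate 2 (0.59). Its partner miR-324-3p stood at 689 and 488 CPM with WT and 247 and 217 CPM with the deletion (−1.34 ± 0.21, called lower).

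The tested names were also described by features of their own, beside 35.9% higher and 39.6% lower over all 626. Of the 41 tested names with a RefSeq sequence of at most 20 bases, 29 were higher and 4 lower (median 1.5), and 30 of the 41 have no arm suffix. For names of 22 bases the counts were 93 higher and 132 lower of 303 (median −0.43). Names with no arm suffix were higher in 60 of 118 cases and lower in 30 (median 0.78), compared with 88 higher and 105 lower of 256 5p names and 77 and 113 of 252 3p names. By level, names with a mean of at least 1000 CPM had 28 rises and 60 falls among 102 (median −1.08), and those from 10 to 100 CPM had 93 and 80 among 231 (median 0.27). Names that begin with U had 53 rises and 94 falls among 200 (median −0.59), and names that begin with A had 72 and 58 among 162 (median 0.41). On the spike-in scale the medians of these classes shifted by about the same amount, and that of the names of at most 20 bases was 0.05. These features overlap, and no test was made of them.

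Against the AA form in the same line, the deletion gave 231 higher (36.9%) and 226 lower names (36.1%) of 626, 73.0% in all, and on the spike-in scale 99 higher and 322 lower. These 2 comparisons share the deletion libraries, so their values are given side by side. MiR-93-5p stood at 17329 and 18210.3 CPM with AA, and the deletion differed from AA by −6.25 ± 0.21 in log2 and from WT by −6.42. For miR-1269b, at 399 and 439 CPM with AA and 199.8 and 266 CPM with WT and 1.77 and 4.59 CPM with the deletion, the difference from AA was −6.97 ± 0.36. The other large falls were miR-375, an endocrine miRNA (406 and 527 CPM with AA, −6.23 ± 0.31), miR-140-3p (−5.76 ± 0.24) and miR-345-5p (−5.67 ± 0.34). Higher than AA by most were miR-19a-5p (3.69 ± 0.21), miR-1268a (3.58 ± 0.46), miR-1268b (3.47 ± 0.41), miR-193a-3p (3.10 ± 0.21) and miR-362-5p (3.09 ± 0.24).

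Of the 248 falls from WT, 207 were also called lower than AA and 5 higher. Of the 225 rises, 201 were also called higher than AA and 1 lower. Both comparisons use the same deletion libraries, so part of this sharing is built in. Some falls from WT were not falls from AA, and the names that follow are examples. MiR-484 was lower still with AA, at 33.7 and 25.1 CPM, and the deletion was above AA by 1.71 ± 0.25. MiR-324-3p, at 132 and 148 CPM with AA, was likewise higher with the deletion than with AA (0.73 ± 0.21). For miR-99b-5p the AA libraries stood at 29.3 and 40.9 CPM and the difference was not called (−0.69 ± 0.32). Neither were let-7a-5p (3847 and 3023 CPM, 0.05 ± 0.23) and miR-320a (5172 and 4951 CPM, −0.06 ± 0.21), whose AA libraries lay near those of the deletion.

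In HCT116 the deletion was compared with WT in the same fit, over 844 names listed for both lines and passing the filter. HEK293T had 516 called names in that fit (61.1%) and HCT116 445 (52.7%). By direction, 269 of the 844 rose and 247 fell in HEK293T, and 174 rose and 271 fell in HCT116. Read against those counts, the 2 lines shared 113 rises (42.0% of the HEK293T rises and 64.9% of the HCT116 rises) and 166 falls (67.2% and 61.3%). In opposite directions, 37 names were called. The difference between the lines was itself called for 294 names (34.8%), 189 above HCT116 (22.4%) and 105 below (12.4%), including all 37. That split follows the scale, since the median difference was 0.34 by TMM. It was 0.03 by DESeq2 size factors (152 above and 136 below), −0.40 by library totals (93 and 197) and 0.42 by spike-ins (176 and 91). The differences that follow are TMM values to be read against 0.34.

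MiR-93-5p and miR-106b-5p, both from the MCM7 intron, fell much more in HEK293T. MiR-93-5p changed by −6.24 in HEK293T and −1.66 in HCT116, a difference of −4.58 ± 0.28 (6268 and 8198 CPM with WT to 2309 and 2277 CPM with the deletion in HCT116). MiR-106b-5p changed by −4.11 in HEK293T and −0.62 in HCT116 (−3.49 ± 0.25). MiR-21-5p (MIR21, in an exon of VMP1, chromosome 17, 59841266 to 59841337), the most abundant miRNA of HCT116, was not called there, going from 342732 and 384622 CPM with WT to 360123 and 291816 CPM with the deletion, and fell in HEK293T from 7632 and 9714 to 627 and 618 CPM (−3.46 ± 0.25). MiR-340-5p (MIR340, in an intron of RNF130, chromosome 5, 180015303 to 180015397) differed by −5.09 ± 0.73, with WT libraries in HEK293T that were uneven (559 and 1253 to 13.2 and 19.1 CPM), and miR-181c-5p by −3.48 ± 0.44.

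The opposite pattern was seen for miR-27a-3p, which went in HCT116 from 19447 and 18399.9 CPM with WT to 1674 and 1672 CPM with the deletion and was not called in HEK293T (3.82 ± 0.23). MiR-125b-5p fell in HCT116, from 1969 and 1923 CPM with WT to 755 and 1016 CPM with the deletion, and rose in HEK293T (3.69 ± 0.36). MiR-33b-5p was not called in HCT116 (1111 and 969 CPM with WT to 880.0 and 1466 CPM with the deletion) and rose in HEK293T (3.51 ± 0.34). MiR-193a-3p changed by 3.85 in HEK293T and 0.59 in HCT116 on the TMM scale (3.26 ± 0.28). MiR-362-5p changed by 3.34 in HEK293T and 0.48 in HCT116 (2.86 ± 0.28). The change within HCT116 was not computed on the spike-in scale, so these small HCT116 values are relative to the typical miRNA and their direction may turn there. Each of these 10 differences was past the threshold after adjustment over all 844 names.

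**Figure D5:**
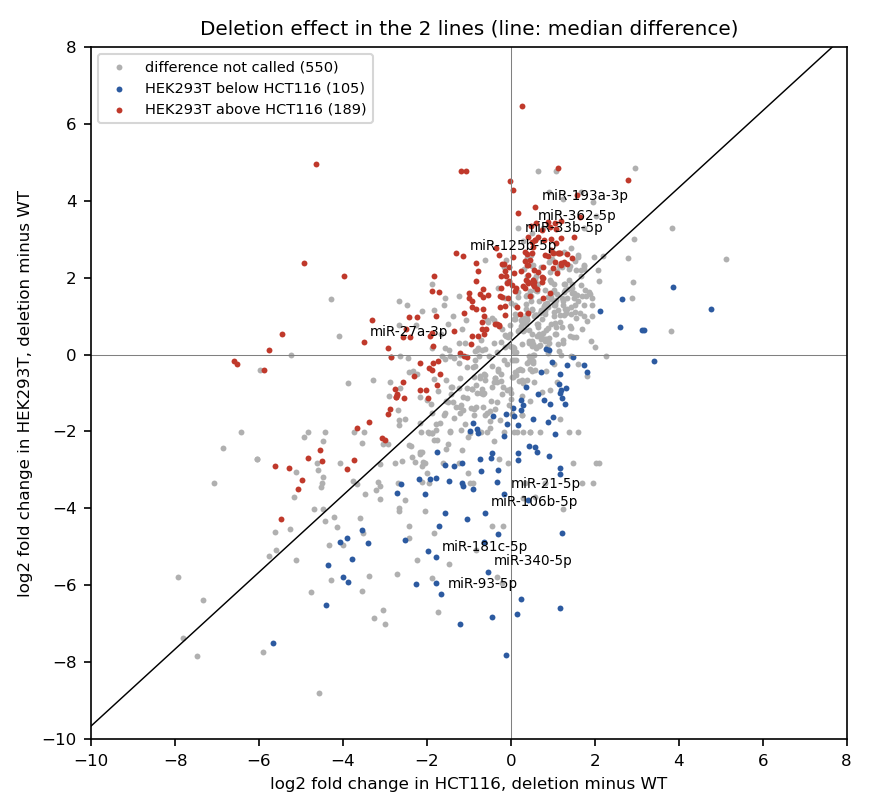
Log2 fold change with the dsRBD deletion in HEK293T (y axis) against that in HCT116 (x axis) for 844 names in 1 fit on the TMM scale, with names whose difference was called above HCT116 in red (189), below in blue (105) and not called in grey (550). The diagonal marks the median difference of 0.34, and miR-93-5p and miR-340-5p lie far below it and miR-27a-3p far above.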

How the data were processed

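Small RNA was measured by AQ-seq in 12 libraries, of which the 6 from HEK293T (2 each of WT, dsRBD deletion and AA) carry the main tests. The deposited values are raw read counts per miRNA name and per spike-in, 1 table per library. The submitters' processing notes name cutadapt, BWA, bedtools and the builds hg38 and mm10. Their versions and roles, the miRNA annotation and the treatment of reads matching several names are not given there.

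Counts were analysed with edgeR 4.0.16 in R 4.3.3. The filter was filterByExpr, applied by group with a minimum count of 10, and TMM set the scale. The quasi-likelihood F test ran over all 6 HEK293T libraries, which share the spread with 3 residual degrees of freedom. Spike-ins were left out of library sizes. P-values were two-sided, adjusted by Benjamini-Hochberg over all names tested, with a threshold of 0.05. Each SE is the log2 fold change divided by the square root of F. Arm use was a test of whether the 3p to 5p ratio depends on the group, blocked by library, in hairpins with at least 10 reads of each arm in at least 2 libraries. The line difference was a contrast over 12 libraries. The methods were run on simulated data with equal numbers of rises and falls and no drop in total miRNA, so those runs did not probe the choice of scale. DESeq2 1.42.0 and limma 3.58.1 gave alternatives. Hairpin positions are 1-based from GENCODE 29 on GRCh38, where a host is the gene annotated on the same strand.

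Named miRNAs were the 10 largest rises and 10 largest falls among called names with groups that did not overlap and a mean of at least 500 CPM, the 10 most abundant names of each form, all members of the miR-17-92, miR-106b-25 and miR-106a-363 clusters that were tested, up to 4 members of each other list, miR-324, miR-451a, miR-144-3p and miR-484, and names sharing a seed with the first group. For arms, up to 8 hairpins a direction with at least 100 CPM and those whose major arm changed were named, except 1 hairpin that is not reported here, and for the other comparisons 5 names a direction. The comparison, lists and rules were chosen with earlier results of these data known. Same-numbered libraries were checked for pairing. Over 626 names their deviations from the group means correlated at −0.03 (WT with deletion), −0.07 (WT with AA) and 0.09 (deletion with AA), and the numbers were therefore not treated as pairs.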

Additional observations from a re-analysis of the deposited data

Results flagged for a closer look

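The effect of the deletion differed between HEK293T and HCT116 by the interaction contrast over 12 libraries for 189 names above HCT116 and 105 below (edgeR's quasi-likelihood test with Benjamini-Hochberg adjustment), against a median difference of 0.34 on the log2 scale. The named differences below HCT116 were −5.09 for miR-340-5p, −4.58 for miR-93-5p, −3.49 for miR-106b-5p, −3.48 for miR-181c-5p and −3.46 for miR-21-5p. Those above were 3.82 for miR-27a-3p, 3.69 for miR-125b-5p, 3.51 for miR-33b-5p, 3.26 for miR-193a-3p and 2.86 for miR-362-5p. Each kept its direction and its call under the 3 other scales and without any 1 of the WT and deletion libraries of either line.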

How the results depend on the processing

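Counts of calls for the deletion against WT moved by over 1.5 times with the spike-in scales and with a wider null. Spike-in size factors gave 60 higher and 386 lower, and spike-in totals 64 and 383. On the TMM scale, a test against a null as large as the widest spike-in change (glmTreat) gave 73 and 139. The other scales moved no count by over 1.5 times: DESeq2 size factors gave 225 and 247, library totals 235 and 246, and upper-quartile factors 275 and 212. Without any 1 HEK293T library the counts were 186 to 221 higher and 233 to 277 lower, and for arm use 38 to 48 toward 3p and 48 to 57 toward 5p. The fit with the replicate number as a block gave 227 higher and 253 lower for levels, 48 and 55 for arm use, 232 and 229 against AA, 182 and 99 for the line difference, and 18 called spike-ins, so the block moved no count by over 1.5 times. Against AA, spike-in size factors gave 99 higher and 322 lower, and leaving out 1 library gave 169 to 226 higher and 197 to 233 lower. The line difference gave 93 above and 197 below by library totals, and 155 to 193 above and 76 to 114 below without any 1 library. The miRNA reads per spike-in read were 32.3% of WT when the geometric mean of the spike-ins was used, and 33.3% to 35.6% without any 1 library. Called spike-ins numbered 11 to 16 without any 1 library. Spike-in size factors turned the sign of miR-19a-3p (−0.15), miR-18a-3p (−0.18), miR-20a-3p (−0.049), miR-92a-1-5p (−0.19), miR-25-5p (−0.999), miR-18b-5p (−1.19), miR-99a-5p (−0.049), miR-23a-3p (−0.49), miR-27a-3p (−1.34), miR-130b-3p (−0.13), miR-33a-3p (−0.57), miR-33b-3p (−0.11), miR-96-5p (−0.47), miR-192-5p (−0.38), miR-196b-5p (−0.29), let-7g-5p (−0.72), miR-324-5p (−0.82), miR-877-5p (−1.45), miR-4521 (−0.16), miR-101-5p (−0.38) and miR-29a-5p (−0.56). Spike-in totals did the same, with −0.12, −0.16, −0.0209, −0.14, −0.97, −1.17, −0.030, −0.47, −1.32, −0.10, −0.55, −0.085, −0.44, −0.35, −0.26, −0.68, −0.80, −1.42, −0.13, −0.36 and −0.53 in that order. Both follow from the lower ratio of miRNA to spike-in reads. The deletion libraries were the shallowest of the 4, at 2.65 and 2.30 CPM for 3 reads, so falls to a few CPM are limited by depth.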
